A study of Mus musculus with 4 samples.

Results

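Igf1, the insulin-like growth factor 1 gene, the 7 genes of the IGF-binding proteins (Igfbp1 to Igfbp7) and Pappa, the gene of a protease that cuts IGF-binding proteins, were followed across 4 microarrays of reprogramming fibroblasts. The 9 genes were taken by name from the array annotation. They were read by 15 of the 55681 probes, which stood for 34816 genes or transcripts in all. Igf1 had 5 probes, Igfbp2 and Igfbp3 had 2 each, and the other 6 genes had 1 each.

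The question behind the series was what AKT, a growth factor-activated kinase, does to the conversion of mouse embryonic fibroblasts (MEFs) into induced pluripotent stem cells (iPSCs). The MEFs (OE-MEFs) came from male embryos of an Oct4-EGFP transgenic mouse at E13.5, pooled from several embryos according to the methods, so the 4 arrays do not compare animals. All cultures were infected with retroviral Oct4, Sox2 and Klf4 (OSK). OSKA cultures were also given AKT-MER, a myristoylated AKT joined to a modified estrogen receptor that 4-hydroxytamoxifen (4OHT) switches on. OSK cells and OSKA cells were each measured without and with 4OHT, on 1 array apiece, at 8 days postinfection (dpi), after 4OHT or its vehicle from day 3. OSKA cells are called AKT-nonactivated where they had the vehicle and AKT-activated where they had 4OHT. The labels name no sorting step before RNA extraction. The free-text note of the OSKA array with 4OHT says that AKT-MER was not activated, against its title and the series design, and the title was followed here.

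IGF1 binds the IGF1 receptor and, through insulin receptor substrates and phosphatidylinositol 3-kinase (PI3K), activates AKT, so these genes lie upstream of the kinase that the study switched on. The binding proteins hold IGFs in the extracellular space and can block or prolong their action, while Pappa frees IGFs by cutting some of them, chiefly the product of Igfbp4. Fibroblasts and other mesenchymal cells make many of these proteins themselves.

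Each level below is the log2 of an intensity divided by the 75th percentile of its array. The 4 levels of a probe always come in the order OSK without 4OHT, OSK with 4OHT, OSKA without 4OHT, OSKA with 4OHT. A contrast is the difference between 2 arrays. The 4 contrasts share arrays, so they are not independent of each other. With 1 array per group there was no test, and the error given is that of the scanner software's error model, about 0.14 for a level and 0.20 for a difference of bright probes, which leaves out the spread between cultures. Levels of different probes are not comparable. RNA was taken from whole cultures, so fewer cells of a type and less RNA per cell cannot be told apart.

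All 4 arrays were on 1 slide, no spot was saturated, and 52.4% to 55.4% of spots were well above background. Of 4 Esr1 probes, 1, which can read the estrogen receptor part of AKT-MER, was well above background on the OSKA arrays only. It was at least 219-fold above the OSK level there without 4OHT and at least 233-fold above it under 4OHT. Of the other Esr1 probes, 2 were well above background on no array and 1, dim, on 3 arrays, an OSK array among them. The Akt1 probe read 5.91, 5.83, 5.82 and 5.90, apart by less than the software error of a difference. The Klf4 probe was well above background on all 4 arrays and the Sox2 probe on none. Whether these probes can read the retroviral genes was not tested. All 10 fibroblast markers were well above background on all 4 arrays, as were 2 of 5 pluripotency markers. These were Nanog (-0.50, 0.03, -0.20 and -0.39) and Pou5f1, the Oct4 gene that the cultures also received as a retrovirus. The other pluripotency markers, Zfp42, Esrrb and Dppa4, were so on no array.

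Across the 9 genes, Igfbp5 stood out in AKT-activated cells and Pappa in the comparison of OSKA with OSK cells without 4OHT. For 4OHT in OSKA cells, 8 of the 9 genes were measured (well above background) on both arrays and 1, Igfbp5, was at least 2-fold higher, against 2.91% of 20300 genes at least 2-fold different in either direction. No member reached 2-fold in the 4OHT effect in OSK cells, where 7 were measured and 0.886% of 19861 genes did. Pappa alone was at least 2-fold higher in OSKA than OSK cells without 4OHT, among 7 measured members, against 2.02% of 20183 genes, and on the spike-in scale no member was (Pappa at 0.82). With 4OHT, Igfbp5 alone of 7 measured members passed 2-fold, being higher in OSKA cells, against 3.04% of 19846 genes. At a threshold of 1.5-fold the 4 counts were 2, 1, 3 and 2, against 9.69%, 5.95%, 9.65% and 10.6% of all genes. No measured member was at least 2-fold lower in any of the 4 contrasts. The members' median difference was 0.01, -0.05, 0.46 and 0.42 in these contrasts, beside -0.03, 0.00, -0.02 and -0.05 over all genes measured.

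**Figure D1:**
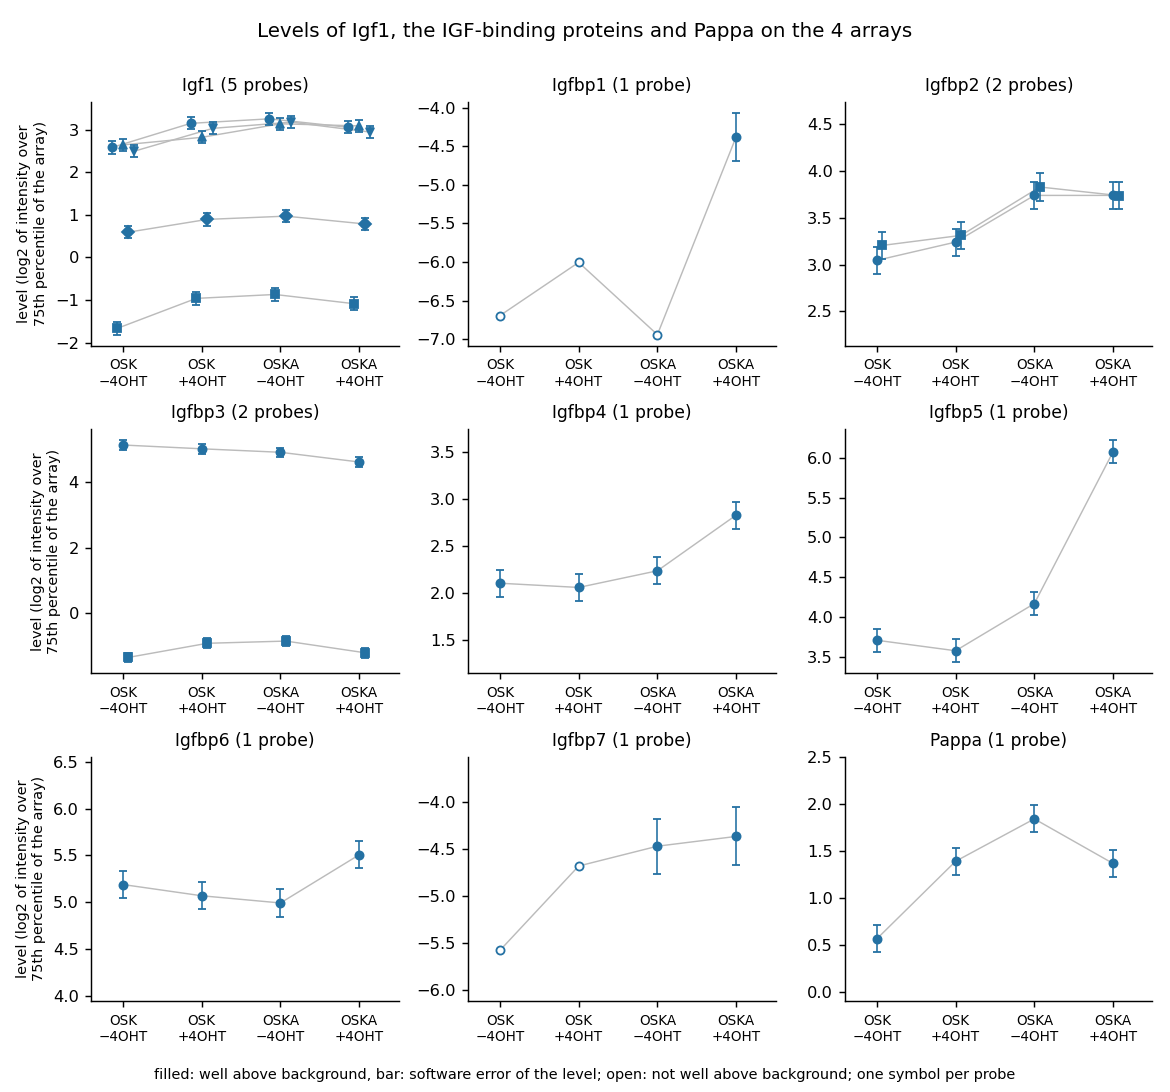
Levels of the 9 genes on the 4 arrays (log2 of intensity over the 75th percentile of the array), 1 panel per gene and 1 symbol per probe, with bars for the software error; open symbols were not well above background. Igfbp5 sits at 6.07 on the array of AKT-activated cells and at 4.17 or below on the other 3, while Pappa is lowest, at 0.56, on the array of OSK cells without 4OHT.

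Igf1, the ligand, was lowest in OSK cells without 4OHT on all 5 of its probes, though not at bases 1027 and 6909 of its transcripts when scaled on the spike-in controls. The probe that stood for the gene, at chr10:87393581-87393640 (NCBI37, plus strand) and base 909 of its transcript, read 2.58, 3.15, 3.25 and 3.06. Its level was thus 1.48-fold higher with 4OHT in OSK cells (0.57 ± 0.20, log2, software error) and 1.59-fold higher in OSKA than OSK cells without 4OHT (0.67 ± 0.20). On the spike-in scale these differences were 0.27 and 0.21, about the software error. The other 3 arrays lay close together, and the 4OHT effect in OSKA cells was -0.20 ± 0.20.

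The probes of Igf1 read different places of its transcripts, and they are shown because the gene is the one member read at more than 2 sites. The pair at bases 889 and 909 shares 40 bases, of which 30 are given first, so these are not separate readings. Each probe was spotted in duplicate, and its spots lay at most 0.18 apart on any array. The probe at base 1027 was designed on another transcript variant and lies at chr10:87378456-87378515. The first 30 bases of it and of the remaining 2 probes follow, 5′ to 3′ and in lower case.
Igf1 stretch shared by the probes at bases 889 and 909: agtccaataacattacaaagatgggcattt
Igf1 probe at base 1027: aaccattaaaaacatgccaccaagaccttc
Igf1 probe at base 3252: agaaatgtaaatggaataagaggtcagctg
Igf1 probe at base 6909: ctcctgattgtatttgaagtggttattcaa

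In OSK cells the 4OHT effect ran from 0.18 to 0.70 over the 5 probes and was positive on each, except that base 6909 gave -0.12 when scaled on the spike-in controls instead of the 75th percentile. It was the smallest at base 6909, the most distal probe, which read 2.64, 2.82, 3.14 and 3.09. At base 3252, a dimmer probe, the levels were -1.66, -0.96, -0.87 and -1.08. The variant probe at base 1027 read 0.59, 0.89, 0.97 and 0.79, and its 2 contrasts against OSK cells without 4OHT, 0.30 and 0.38, stayed within 2 software errors of 0. In OSKA cells the 4OHT effect ran from -0.23 to -0.05 and was negative on each of the 5 probes, none beyond 2 software errors, with base 6909 at 0.02 on the spike-in scale. The AKT-MER effect without 4OHT ran from 0.38 to 0.79, with base 1027 at -0.08 on the spike-in scale, and that with 4OHT from -0.12 to 0.27.

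**Figure D2:**
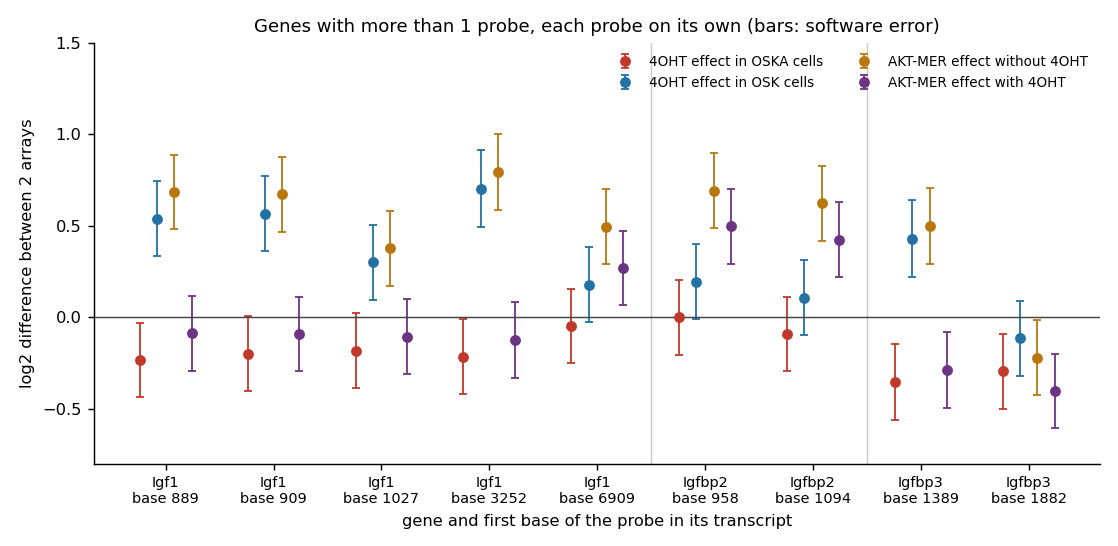
Log2 difference between 2 arrays for each probe of the 3 genes with more than 1 probe, by contrast (colour), with bars for the software error; the x axis names the gene and the first base of the probe in its transcript. The blue (4OHT effect in OSK cells) and ochre (AKT-MER effect without 4OHT) points lie above 0 on all 5 Igf1 probes (on the spike-in scale, not drawn, 1 probe of each colour turned), and on Igfbp3 they lie on opposite sides of 0, 0.43 and 0.50 at base 1389 against -0.12 and -0.22 at base 1882.

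Markers of macrophages, a cell type that also makes Igf1, differed between the same arrays. All 6 (Ptprc, Adgre1, Csf1r, Itgam, Cd68, Tyrobp) were well above background on all 4 arrays. Their intensities, each over the 75th percentile of the array, summed to 166, 236, 229 and 201. In the 4OHT effect in OSK cells 5 of 6 markers were higher, with a median of 0.56, and in the AKT-MER effect without 4OHT 5 of 6 were higher, with a median of 0.50. The medians were -0.19 for 4OHT in OSKA cells and -0.24 for AKT-MER with 4OHT. On the spike-in scale the first 2 medians were 0.26, with 5 of 6 higher, and 0.04, with 3 of 6 higher. The part of these cells in the Igf1 levels was not tested.

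**Figure D3:**
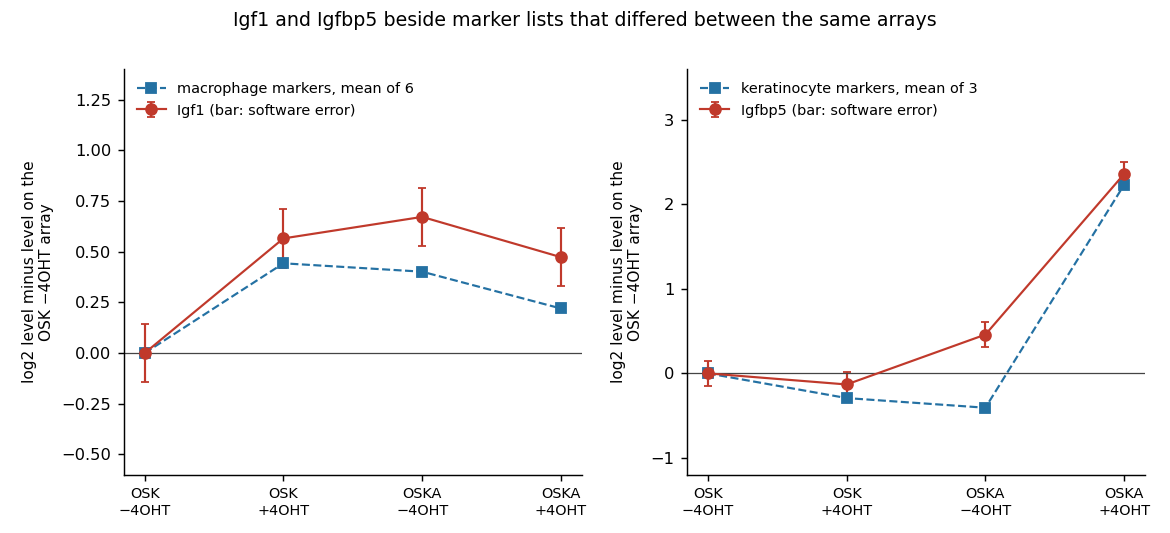
Level of Igf1 beside the mean level of 6 macrophage markers (left), and of Igfbp5 beside the mean of the 3 keratinocyte markers measured on all 4 arrays (right), each as the log2 difference from the array of OSK cells without 4OHT; bars are the software error. Igf1 and the macrophage markers are lowest on that array, and Igfbp5 and the keratinocyte markers are highest on the array of AKT-activated cells. On the spike-in scale, not drawn, the macrophage marker mean was lowest in AKT-activated cells instead. There OSKA cells without 4OHT differed from OSK cells without 4OHT by -0.06, and AKT-activated cells from OSKA cells without 4OHT by a further -0.11.

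Igfbp1, which insulin signalling through AKT and FOXO factors is known to repress in liver, was near the limit of the array. Its probe (chr11:7102442-7102501, NCBI37) was well above background in AKT-activated cells only, at -4.38. It was therefore at least 1.44-fold higher there than in AKT-nonactivated cells and at least 1.12-fold higher than in OSK cells with 4OHT, the latter (0.16 on the log2 scale) within the software error of the level, 0.31. On the other 3 arrays it was not well above background, and no value is given for the other contrasts. Of the 4 liver markers, Alb, Ttr and Apoa1 were well above background on no array, while Afp, a marker of fetal liver, was so on the other 3 than OSK cells without 4OHT, dim at -3.49, -3.41 and -3.58.

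Igfbp2, a binding protein made by many embryonic tissues, was higher in both OSKA arrays than in both OSK arrays. One of its probes (chr1:72898677-72898736, NCBI37) ends at the stop codon of an open reading frame, and is shown whole because it reads coding sequence; the stop codon is in capitals.
Igfbp2 probe at base 958: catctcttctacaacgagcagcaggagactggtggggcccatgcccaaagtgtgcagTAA

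That probe read 3.04, 3.24, 3.74 and 3.74, and the probe at base 1094, which stood for the gene, read 3.20, 3.31, 3.83 and 3.73. OSKA exceeded OSK cells by 0.62 ± 0.20 without 4OHT and 0.42 ± 0.20 with 4OHT at base 1094, and by 0.69 and 0.50 at base 958. On the spike-in scale the difference without 4OHT at base 1094 was 0.16, within the software error. The 4OHT effect in OSKA cells was -0.09 and 0.00 on these probes, so 4OHT made no difference that the software error could resolve. In OSK cells it was 0.11 and 0.19, and it turned to -0.19 and -0.10 when scaled on the spike-in controls.

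Igfbp3, which carries most of the IGF in blood, had 2 probes that did not move together. The brighter one (base 1882, chr11:7106594-7106653, NCBI37, minus strand) read 5.12, 5.01, 4.90 and 4.61 and was lowest in AKT-activated cells, where 4OHT gave -0.30 ± 0.20 against AKT-nonactivated cells. The dimmer one (base 1389, chr11:7107949-7108008), designed on another transcript, read -1.35, -0.92, -0.85 and -1.21 and was lowest in OSK cells without 4OHT, or in AKT-activated cells on the spike-in scale. The first 30 bases of each show that they are separate stretches.
Igfbp3 probe at base 1389: ggagaacctggcatatttggtttctgaatt
Igfbp3 probe at base 1882: gcagttttccaaaaacacagatttcttttc

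Both were lower in AKT-activated than AKT-nonactivated cells, with differences of -0.30 and -0.35 on the log2 scale. For 4OHT in OSK cells they had opposite signs, -0.12 and 0.43, and likewise for AKT-MER without 4OHT, -0.22 and 0.50. Taken as the mean of both probes, the gene's difference in these 2 contrasts became 0.16 and 0.14.

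Igfbp4, Igfbp5 and Igfbp6 were each highest in AKT-activated cells, except that on the spike-in scale Igfbp6 was highest in OSK cells without 4OHT, where AKT-activated cells differed from them by -0.07. Igfbp4, a binding protein that inhibits IGF action and is the main substrate of the Pappa product, read 2.10, 2.06, 2.23 and 2.83 (chr11:98913334-98913393, NCBI37). AKT-activated cells exceeded AKT-nonactivated cells by 0.59 ± 0.20 and OSK cells with 4OHT by 0.77 ± 0.20, which is 1.51-fold and 1.71-fold. Its 4OHT effect in OSK cells was -0.05. AKT-MER without 4OHT gave 0.13, which turned to -0.33 on the spike-in scale.

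Igfbp5, a binding protein that sticks to extracellular matrix, gave the widest range among members measured on all 4 arrays, at 3.71, 3.58, 4.17 and 6.07 (chr1:72904829-72904888, NCBI37, minus strand). The array of AKT-activated cells was far above the other 3. The level there was 3.74-fold that of AKT-nonactivated cells (1.90 ± 0.20) and 5.63-fold that of OSK cells with 4OHT (2.49 ± 0.20). Of the genes measured in these contrasts, 64 of 20300 and 15 of 19846 had a larger value. Without AKT-MER, 4OHT gave -0.13. AKT-MER without 4OHT gave 0.46, or 0.00 on the spike-in scale. Under the other scalings the 4OHT effect in OSKA cells lay between 1.90 and 1.97. The settings of filter and probe choice could not change it, since the gene rests on 1 bright probe with 1 spot.

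Igfbp6, which binds IGF2 in preference to IGF1, read 5.19, 5.07, 4.99 and 5.51 (chr15:101979852-101979911, NCBI37). The 4OHT effect in OSKA cells was 0.51 ± 0.20 and the AKT-MER effect with 4OHT 0.44 ± 0.20. In OSK cells 4OHT gave -0.12, and AKT-MER without 4OHT gave -0.20. These became -0.42 and -0.65 on the spike-in scale.

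**Figure D4:**
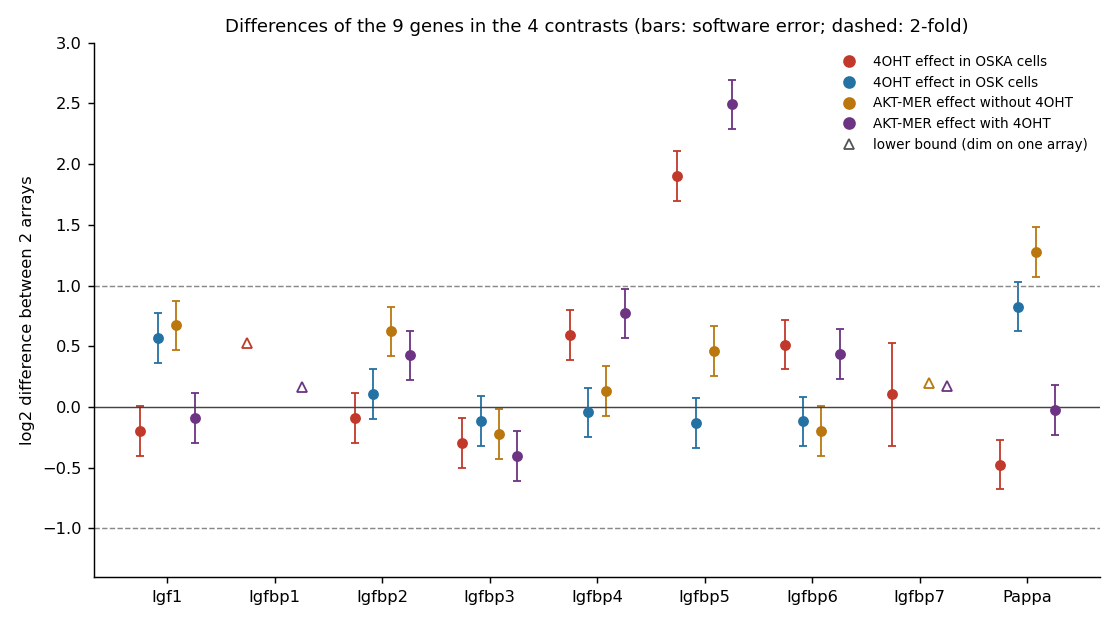
Log2 difference between 2 arrays for the probe that stood for each of the 9 genes, in the 4 contrasts (colour), with bars for the software error and dashed lines at 2-fold; open triangles are lower bounds where the probe was dim on 1 of the 2 arrays. Igfbp5 passes 2-fold in both contrasts that hold AKT-activated cells, at 1.90 and 2.49, and Pappa passes it at 1.28 in OSKA against OSK cells without 4OHT (0.82, below 2-fold, on the spike-in scale, not drawn).

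Keratinocyte markers differed between the same arrays as Igfbp5. Of the 4, Krt14, Krt16 and Krt6b were well above background on all arrays and Krt5 in AKT-activated cells only. Their scaled intensities summed to 2.77, 2.21, 1.88 and 15.2, and all 3 measured markers were at least 2-fold higher with 4OHT in OSKA cells, with a median of 3.09. The fibroblast markers summed to between 1595 and 1793, and 7 of 10 were higher with 4OHT in OSKA cells, with a median of 0.08 and Lum, a matrix proteoglycan gene, at 1.13. Of the endothelial, adipocyte, osteoblast, chondrocyte and skeletal muscle lists, 3 of 5, 1 of 4, 1 of 4, 2 of 4 and 0 of 4 markers were measured on all arrays. Bglap, an osteoblast marker, was well above background in AKT-activated cells only, at least 5.71-fold higher than in AKT-nonactivated cells, while Ibsp and Sp7 of that list were so on no array and Runx2, on all 4, gave -0.44. With 4OHT in OSKA cells the chondrocyte markers Sox9, Acan and Col2a1 gave 1.06, 0.26 and -0.01. The part of any of these cell types in the binding protein levels was not tested.

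The starts of Igfbp4, Igfbp5 and Igfbp6, and of Igfbp1, which was measured in AKT-activated cells only, are given as context, each as the 250 bases before the RefSeq start site, on the gene's strand and 5′ to 3′. Capitals mark matches to any of 3 motifs searched on both strands: GTAAACA, the core that FOXO factors bind, CAAAACA, an element known from the Igfbp1 promoter, and TATAAA, the TATA box. Positions are in GRCm38.p6, another build than the probe positions.
Igfbp1, chr11:7197537-7197786, plus strand: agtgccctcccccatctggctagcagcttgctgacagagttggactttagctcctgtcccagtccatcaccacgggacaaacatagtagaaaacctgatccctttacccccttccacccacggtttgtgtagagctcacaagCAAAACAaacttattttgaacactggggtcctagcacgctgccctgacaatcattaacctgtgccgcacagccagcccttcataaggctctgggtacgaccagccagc
Igfbp4, chr11:99040994-99041243, plus strand: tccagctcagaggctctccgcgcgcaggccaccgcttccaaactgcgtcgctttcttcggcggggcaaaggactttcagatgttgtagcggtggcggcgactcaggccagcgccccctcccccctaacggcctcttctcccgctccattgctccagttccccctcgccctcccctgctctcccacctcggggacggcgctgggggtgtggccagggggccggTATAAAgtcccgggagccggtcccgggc
Igfbp5, chr1:72874866-72875115, minus strand: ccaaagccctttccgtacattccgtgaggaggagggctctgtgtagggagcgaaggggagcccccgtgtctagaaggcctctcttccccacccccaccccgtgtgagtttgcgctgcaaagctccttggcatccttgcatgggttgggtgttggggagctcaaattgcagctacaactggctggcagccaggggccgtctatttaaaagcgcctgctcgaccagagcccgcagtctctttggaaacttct
Igfbp6, chr15:102143936-102144185, plus strand: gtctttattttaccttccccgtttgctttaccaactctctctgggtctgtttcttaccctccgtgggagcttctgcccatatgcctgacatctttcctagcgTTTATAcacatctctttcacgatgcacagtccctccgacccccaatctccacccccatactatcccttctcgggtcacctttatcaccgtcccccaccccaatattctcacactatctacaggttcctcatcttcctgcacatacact

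The search ran from 250 bases before the start to 50 bases after it, past the bases shown. CAAAACA was found in Igfbp1, 108 to 102 bases before the start, and in 6.28% of 32851 promoters searched over the same span. TATAAA was found in Igfbp4, 28 to 23 bases before the start, and on the other strand of Igfbp6, 148 to 143 bases before it, and in 13.6% of promoters. Igfbp5 held none of the 3. GTAAACA, present in 3.65% of promoters, was in none of the 8 members with a promoter in the table. A match is a match of letters only.

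Igfbp7, a secreted protein that binds IGFs weakly, was dim throughout on its 1 probe. That probe holds 23.3% G and C, the lowest share among the member probes, and how well it reads the gene was not tested. Its probe (chr5:77778271-77778330, NCBI37, minus strand) was well above background on the OSKA arrays only, at -4.47 and -4.37. The 4OHT effect in OSKA cells was 0.10 ± 0.42, and OSKA exceeded OSK cells by at least 1.14-fold without 4OHT and at least 1.13-fold with 4OHT. Both bounds, 0.19 and 0.18 on the log2 scale, are smaller than the software error of the OSKA levels (0.29 and 0.31), and on the spike-in scale the first cannot be given.

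Pappa, the IGF-binding protein protease, was lowest in OSK cells without 4OHT. Its probe lies at chr4:65018429-65018488 (NCBI37, plus strand), base 10912 of a long transcript, and begins with the 30 bases below, given since the gene rests on this probe alone.
Pappa probe at base 10912: gatctgacacacacacatatacacaaataa

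The levels were 0.56, 1.39, 1.84 and 1.36. OSKA exceeded OSK cells 2.42-fold without 4OHT (1.28 ± 0.20), and 67 of 20183 genes had a larger difference. In OSK cells 4OHT gave 1.77-fold (0.83 ± 0.20), with 249 of 19861 genes above it. In OSKA cells the sign was the opposite, at -0.47 ± 0.20, or 1.39-fold lower. With 4OHT, OSKA and OSK cells were -0.02 apart. Both large values rest on the array of OSK cells without 4OHT. Scaled on the spike-in controls, which moved the median of all genes by -0.30 and -0.46 in the 2 contrasts with that array, they became 0.53 and 0.82, below 2-fold.

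The 4OHT effect was thus not alike in OSKA and OSK cells for several members, though with 1 array each the difference was not tested. OSKA minus OSK came to 2.03 for Igfbp5, 0.64 for Igfbp4 and 0.63 for Igfbp6, each with a software error of 0.29. It was -1.30 for Pappa and between -0.92 and -0.23 over the Igf1 probes, of which base 6909 gave 0.14 and base 909 -0.40 on the spike-in scale. On that scale Igfbp5, Igfbp4, Igfbp6 and Pappa gave 2.40, 1.003, 0.998 and -0.94.

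For the 2 members with a range of at least 1 on the log2 scale that were measured on all 4 arrays, the genes most like them were found by the distance between their 4 levels, each centred on its mean, among 14270 named genes. Pik3r3, a regulatory subunit of PI3K, lay nearest to Igfbp5 (distance 0.12), with levels of 0.47, 0.49, 1.06 and 2.94. Slpi, a secreted protease inhibitor, followed at 0.24 and Aldh1a7 at 0.32. C5ar2, a receptor for complement fragment C5a, lay nearest to Pappa (0.08), with levels of -1.64, -0.86, -0.47 and -0.88, followed by 6330407A03Rik at 0.10 and Inpp5f, a phosphoinositide phosphatase gene, at 0.13. With 4 arrays such likeness is a description.

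The rest of the pathway was read from 8 lists of 47 genes, of which 4 (Ins1, Insrr, Adam28, Ccn6) were well above background on no array. For 4OHT in OSKA cells, of the 42 measured genes 3 passed 2-fold upwards and 3 downwards, with a median of -0.13, against the 2.91% of all genes given above. None of 40 reached 2-fold for 4OHT in OSK cells, where 0.886% of all genes did. For AKT-MER without 4OHT 1 of 41 was at least 2-fold higher, a share near the 2.02% of all genes. For AKT-MER with 4OHT 1 of 40 was higher and 3 were lower, against 3.04%. These counts leave out genes dim on 1 of the 2 arrays. Among those, Igfals and Igfbpl1 were at least 2.73-fold and 3.49-fold higher for AKT-MER with 4OHT. Stc1 was at least 2.31-fold higher for 4OHT in OSKA cells, and no such bound reached 2-fold downwards.

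Between the ligand and PI3K, the receptor gene Igf1r and the adaptor genes Irs1 and Irs2 were lowest in AKT-activated cells. Igf1r, the receptor of IGF1, read 3.66, 3.47, 3.36 and 2.42. It was -0.95 ± 0.20 for 4OHT in OSKA cells, just short of 2-fold, and -1.06 for AKT-MER with 4OHT, which became -0.98 after normexp background correction with quantile normalization. Irs2, a docking protein of the activated receptor, read 4.86, 4.84, 4.46 and 3.43, with -1.03 (-0.96 on the spike-in scale) and -1.41 in these contrasts. Irs1, its relative, read 3.96, 3.89, 4.04 and 3.08, with -0.96 and -0.81, and -0.79 and -0.59 on its other probe. Each had its lowest value on the array of AKT-activated cells, and the 4OHT effect in OSK cells was -0.18, -0.02 and -0.07, with 0.32 on the other Irs1 probe. Of all 8 adaptors and inhibitors measured, 1 (Irs2) passed 2-fold for 4OHT in OSKA cells, against 2.91% of all genes. A positive difference was seen in 5, with a median of 0.06, beside -0.03 over all genes. For AKT-MER with 4OHT 1 passed 2-fold downwards, against 3.04% of all genes in either direction. There 3 were positive, with a median of -0.08, beside -0.05 over all genes.

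Insr, the insulin receptor, showed the same sign at smaller size, with -0.47 for 4OHT in OSKA cells and between -0.70 and -0.39 on its other probes. Igf2r, which clears IGF2, was 0.25 there, and Igf2, the other IGF, was -0.46. Pik3r1, which encodes the main regulatory subunits of PI3K, went the other way, at 0.33, 0.53, 0.55 and 1.57. Its difference was 1.02 for 4OHT in OSKA cells and 1.04 for AKT-MER with 4OHT, the latter 0.95 on the spike-in scale. Of the 6 genes of PI3K and its brake, 1 passed 2-fold in each of these contrasts, against 2.91% and 3.04% of all genes. In both, 4 were positive and 2 negative. Pik3cb, a catalytic subunit gene, gave -0.73 and -0.99, the latter -1.08 on the spike-in scale.

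**Figure D5:**
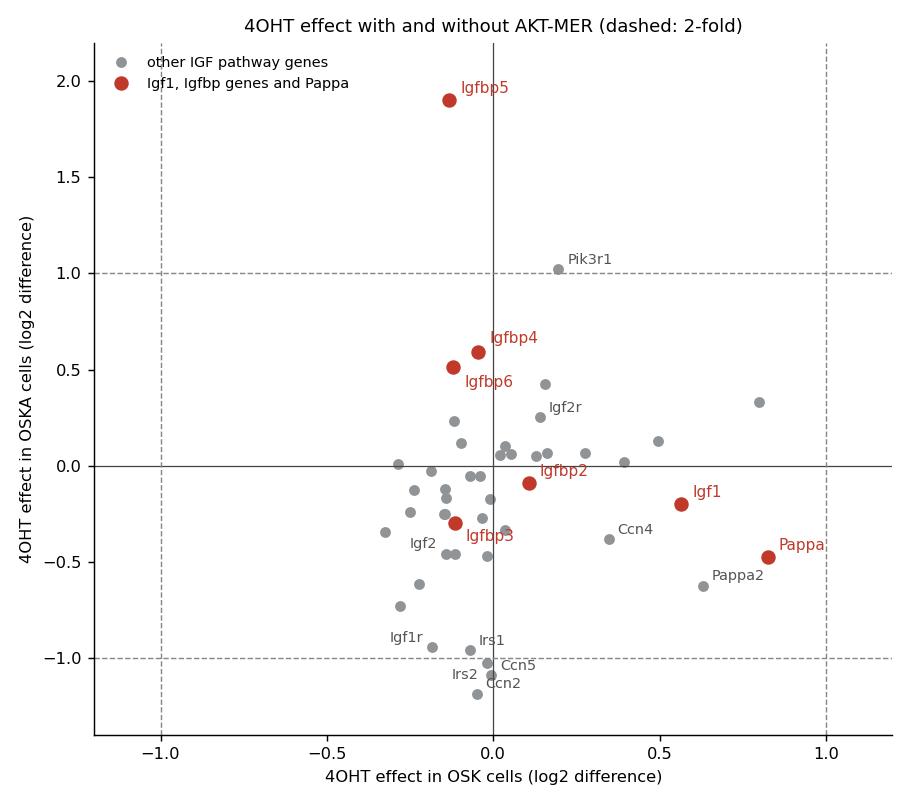
4OHT effect in OSKA cells (y axis) against that in OSK cells (x axis), both as log2 differences between 2 arrays, for the 7 members (red) and 40 pathway genes (grey) measured on all 4 arrays of these contrasts; dashed lines mark 2-fold. Igfbp5 lies highest, at 1.90, Ccn2 lowest, at -1.19, and no gene passes 2-fold along the x axis.

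Among the partners of the binding proteins, Pappa2, the relative of Pappa that cuts other IGF-binding proteins, read -2.29, -1.66, -1.13 and -1.75. Its AKT-MER effect without 4OHT was 1.16, or 0.71 on the spike-in scale and also 0.71 after normexp with quantile normalization. Of the stanniocalcins, inhibitors of Pappa, Stc1 was well above background in AKT-activated cells only, at least 2.31-fold higher than in AKT-nonactivated cells. Stc2 read 0.90, 0.75, 0.10 and -0.15, lower in OSKA than OSK cells at -0.81 without 4OHT and -0.91 with it. On the spike-in scale the first was -1.26 and the second just past 2-fold.

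Igfals, which holds IGF and Igfbp3 or Igfbp5 proteins in a ternary complex, was measured on the OSKA arrays only, at -4.31 and -3.09. The difference was 1.22, but 0.36 after normexp with quantile normalization. Igfbpl1, a protein with the binding protein domain, differed by 1.43 at similarly dim levels, and by 0.58 after that correction. Ccn2, the connective tissue growth factor gene, once grouped with the binding proteins, read 6.28, 6.23, 5.74 and 4.56, with -1.19 for 4OHT in OSKA cells and -1.67 for AKT-MER with 4OHT. Ccn5 of the same family was -1.09 for 4OHT in OSKA cells. Of the 8 measured genes in this list of secreted relatives, 1 passed 2-fold upwards and 2 downwards for 4OHT in OSKA cells, against 2.91% of all genes. None of the 5 genes of the growth hormone axis, which drives Igf1 in liver, and none of the 3 Igf2 mRNA-binding protein genes passed 2-fold in any of the 4 contrasts, with medians between -0.26 and -0.03.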

How the data were processed

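Total RNA (100 ng) was labelled with Cy3 and hybridised to single-colour Agilent arrays, per the labels. The deposited scanner files hold a linear intensity per spot, from Agilent Feature Extraction 10.7.3.1, which per the file headers was background-subtracted and detrended, with surrogate values for dim spots. The authors' series matrix holds the same intensity, rounded (ratio 0.995 to 1.005). From these, log2 intensity minus the array's 75th percentile was computed in Python 3.11.15 (pandas 2.3.3), without control spots and spots marked as uneven. Spots of a probe were averaged, and each gene was represented by its probe of highest mean over the 4 arrays. A difference needed both arrays well above background; otherwise the brighter level was set against the lowest such level on the dim array ("at least"). Alternatives used limma 3.58.1 in R 4.3.3 (normexp offset 50, quantile), median centring, 258 spike-in spots, the matrix, other dim-probe filters, the mean of probes and a 1.5-fold threshold. The code was tested on simulated data.

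Of the probes, 49.4% were named by RefSeq accession, in the GRCm38.p6 table that also gave the promoters; 13 of the 15 member probes were. Probe positions are the files' (NCBI37). Genes named were all members, pathway genes at least 2-fold different in any contrast, 9 pathway genes whatever their values, the most similar genes and the markers. Genes of the retroviruses were named too, and Ccn4 and Pik3cb were added after their values were seen. The members and lists were chosen with earlier results of these data known.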

Additional observations from a re-analysis of the deposited data

Results flagged for a closer look

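Among the 7 members and 40 pathway genes measured on all 4 arrays, 3 had 4OHT effects of opposite sign in OSKA and OSK cells. Each effect was beyond its software error, on the probe that stood for the gene. How many of all genes did so was not counted, and with 1 array per group the difference between the effects was not tested. Igfbpl1, dim in OSK cells with 4OHT, gave 1.43 in OSKA cells, or 0.58 after normexp with quantile normalization. In OSK cells it was at least 1.73-fold lower with 4OHT. For Pappa the effect in OSKA cells minus that in OSK cells was -1.30 on the log2 scale (-0.47 against 0.83). Pappa2 gave -1.26 (-0.62 against 0.63). Ccn4, a secreted matrix protein gene of the CCN family, gave -0.73 (-0.38 against 0.35). The Ccn4 values lie within 2 software errors, and its other probe gave -0.52 against 0.11, the latter within the software error. On the spike-in scale the effects in OSK cells were 0.53, 0.33 and 0.05, so Ccn4 no longer passed its error there. Pappa and Pappa2 were lowest on the array of OSK cells without 4OHT. Among the other probes of the 9 genes, Igf1 at bases 889 (-0.23 against 0.54) and 3252 (-0.22 against 0.70) and Igfbp3 at base 1389 (-0.35 against 0.43) did the same, while on the spike-in scale 1 effect of each was within its error (-0.17, -0.15 and 0.13).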

How the results depend on the processing

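No paired analysis was possible because each group has 1 array, and neither leaving out a replicate nor a slide block (1 slide) could be run. The number of arrays, and signal over background for Igfbp1 and Igfbp7, limit the precision. Over 8 alternatives, 215 of 231 values of member differences stayed within the software error. The 16 others came from spike-in scaling (14), with a change of sign in 2, and from the mean of all probes for Igfbp3 (2), both with a change of sign. Part of the agreement holds by construction. The filters on dim probes cannot move a measured difference, and the mean of all probes cannot move a gene with 1 probe. The series matrix holds the same intensities, rounded. The cause of the spike-in shift was not tested. At 1.5-fold, the counts of members past the threshold became 2, 1, 3 and 2 (from 1, 0, 1 and 1 in the order 4OHT in OSKA, 4OHT in OSK, AKT-MER without and with 4OHT), and those of pathway genes 11, 2, 6 and 9 (from 6, 0, 1 and 4), by construction, beside 9.69%, 5.95%, 9.65% and 10.6% of all genes. Without the filter on dim probes the members were 2, 2 and 2 (not moved for 4OHT in OSK cells) and the pathway genes 2, 4 and 8 (4OHT in OSK, AKT-MER without and with 4OHT), since dim values entered. Spike-in scaling left 0 members for AKT-MER without 4OHT, and normexp with quantile normalization left 0 pathway genes there.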
